A study of Homo sapiens with 16 samples.

Results

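The late step in the culture of control rhabdoid cells, from day 3 to day 5, was examined in 4 of the 16 RNA sequencing libraries of the series: LacZ day 3 and LacZ day 5, with 2 libraries each, chosen by guide and day as labelled. All cells were G401, a cell line derived from a rhabdoid tumor of the kidney, grown in DMEM with 10% FBS. No drug is named in the labels of any group. Cells of every group carried Cas9 (blasticidin selection) and a guide RNA (puromycin selection). In LacZ cells the guide recognizes a bacterial gene that is absent from the human genome, so BRD9 is intact. The same step in the 4 BRD9 KO libraries of days 3 and 5 is given beside it. The event from which the days were counted, and whether cells were replated or medium was renewed between day 3 and day 5, are not given in the sources used here. Time in culture, cell density, medium and any sample handling particular to a day therefore cannot be told apart. The 2 libraries of a group are called biological replicates by the study without saying whether they came from separate cultures. The p-values measure only the spread between the 2 libraries of a group, estimated over all 16 libraries of the series together.

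Rhabdoid tumors are cancers of early childhood driven by loss of SMARCB1, a subunit of the SWI/SNF chromatin remodeler. Cultured lines such as G401 adapt their metabolism, secretory load, cytoskeleton and growth signalling to the supply of nutrients, sterols and growth factors and to contact with neighbouring cells. Several of these responses have dedicated transcription factors: SREBP proteins for sterol and lipid synthesis, TFEB and TFE3 for lysosomes, ATF6 and XBP1 for the endoplasmic reticulum, ATF4 for amino acid supply, NF-kB for inflammatory signals, p53 for DNA damage and SRF for actin.

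The cells matched their label. In CPM, the counts of a gene per 1000000 counts of its library after TMM scaling, SMARCB1 stood at 0 in all 4 libraries. The intermediate filaments that mark these cells were abundant. VIM stood at 2037, 2086, 1878 and 1887 CPM and KRT18 at 3228, 3213, 2663 and 2686 CPM in day 3 replicates 1 and 2 and day 5 replicates 1 and 2, the order used throughout. Of the markers of other cell types, PTPRC, CD3E, HBB, CDH5, LRP2, UMOD, MYOD1 and SNAP25 were at 0 in all 4 libraries and EPCAM, CDH1, CD14, MYOG and AQP2 did not exceed 0.238 CPM. The endothelial marker VWF and the neuronal marker RBFOX3 had enough counts to be tested and were not called (adjusted p = 0.634 and 0.769 by edgeR). The endothelial marker PECAM1 is not reported here. Kidney progenitor and tubule genes summed to 18.86 to 21.78 TPM with 0 of 9 tested members called. Blood cell genes had 1 of 8 called, CD68, a gene of macrophage lysosomes, and summed to 103, 97.18, 131.8 and 138.3 TPM. Other lists summed to more. Endothelial genes were at 215.3 to 243.6 TPM (1 of 6 tested called higher, MMRN1) and neural genes at 485.6 to 512.8 TPM (2 of 11 higher, 1 lower). Muscle genes were at 426.5 to 483.8 TPM (3 of 16 higher). Epithelial genes, with KRT8 and KRT18 among them, were at 8528, 8427, 7242 and 7261 TPM (2 of 15 higher, 4 lower). Mesenchymal genes, with VIM among them, were at 4624, 4701, 4116 and 4099 TPM (1 of 12 higher, 5 lower). Over all genes tested 7.55% were called higher and 7.97% lower. BRD9 was at 62.2, 64.5, 62.4 and 60.6 CPM in LacZ cells (log2 fold change -0.04 ± 0.057 (SE), adjusted p = 0.697 by edgeR's quasi-likelihood test) and at 22.5 to 25.9 CPM in the BRD9 KO libraries of the same days. The SWI/SNF ATPase SMARCA4 differed by 0.08 ± 0.02 on the log2 scale (adjusted p = 0.00644 by edgeR) and the subunit GLTSCR1 by -0.06 ± 0.10 (adjusted p = 0.753 by edgeR).

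The 4 libraries held 11252814 to 13446202 counts, against 9185808 to 16560669 over the series. Mitochondrially encoded mRNAs took 4.70% to 4.73% of the counts in them and the 50 most abundant genes 14.55% to 14.69%. The days overlapped in the first share, and in the second both day 5 libraries (14.55% and 14.64%) lay below both day 3 libraries (14.69% and 14.68%). Genes with symbols of ribosomal RNA, mitochondrial included, took 1.069% and 1.068% on day 3 and 1.101% and 1.13% on day 5, which separates the days too. The part of either share in the results was not tested. The spread between the 2 libraries of a day was 1.07 times counting noise on day 3 and 1.05 times on day 5, the median over genes with at least 100 counts, so the spread behind each test was hardly wider than that of counting reads.

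Between day 3 and day 5 the LacZ cells changed modestly in size and broadly in number. Of 15027 genes tested, 2332 were called (15.5%), at an adjusted p under 0.05 from edgeR's quasi-likelihood test. Of these 1134 were higher on day 5 (7.55%) and 1198 were lower (7.97%). The median absolute log2 fold change of the called genes was 0.23. On the log2 scale 220 changed by at least 0.5 and 64 by at least 1, and the median over all genes tested was 0.00. Both libraries of one day lay beyond both of the other in every called gene, and in 55.97% of all genes tested. With replicate 1 or replicate 2 of day 3 left out 1529 and 1449 genes were called, and with replicate 1 of day 5 left out 1308.

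**Figure D1:**
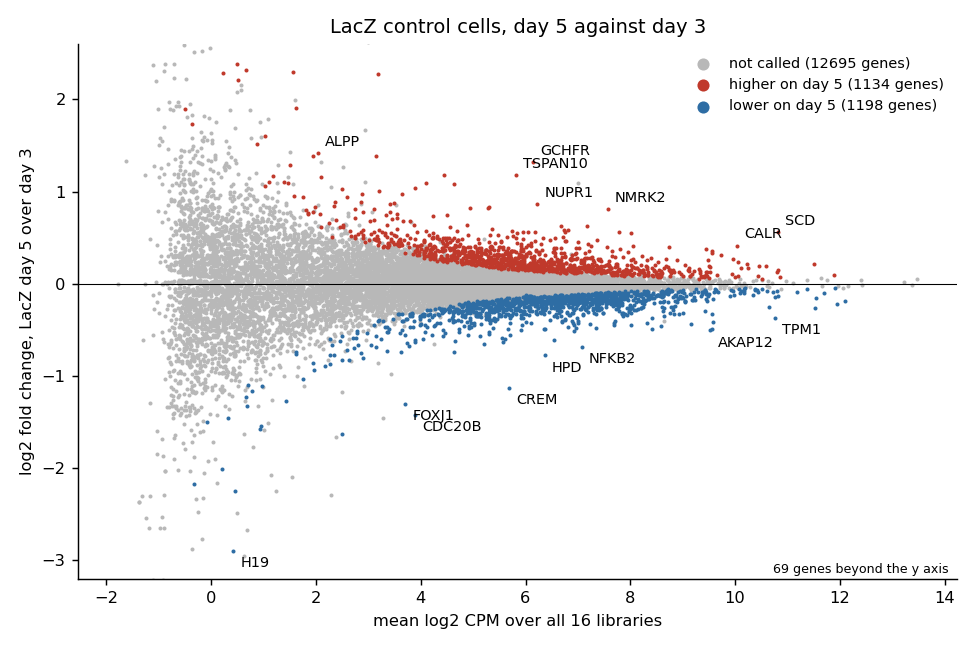
Log2 fold change of LacZ day 5 over day 3 (y axis) against the mean log2 CPM over all 16 libraries (x axis), one point per gene tested, with genes called higher in red, genes called lower in blue and the others in grey. Among abundant genes SCD and CALR rose and TPM1 and AKAP12 fell, and 69 genes lie beyond the y axis.

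A leading gene among those that rose was GCHFR (ENSG00000137880.4, GRCh37 chromosome 15 from 41056266 to 41059906, plus strand). Its protein restrains GTP cyclohydrolase 1, the first enzyme of tetrahydrobiopterin synthesis. It stood at 42.9, 41.9, 107 and 105 CPM, a fold of 2.5 (log2 1.32 ± 0.051, adjusted p = 3.93e-12 by edgeR). The tetraspanin gene TSPAN10 went from 30 and 33.5 to 70.2 and 73.8 CPM (log2 1.18 ± 0.062, adjusted p = 2.67e-10 by edgeR). NMRK2, a nicotinamide riboside kinase of NAD synthesis named after its values were seen, was at 133, 132, 232 and 232 CPM (log2 0.81 ± 0.03, adjusted p = 2.71e-12 by edgeR). In all 3 genes both day 5 libraries lay far above both day 3 libraries. GMPPB, which makes GDP-mannose for glycosylation, was at 12.1, 11.1, 24.3 and 28.7 CPM. Lower in level were the chemokine gene CCL25, at 3.07, 2.06, 6.1 and 5.34 CPM, the transcription factor gene CEBPA, at 5.17, 3.64, 11.9 and 11.1 CPM, and the tight junction gene CLDN4, at 2.5, 2.22, 5.88 and 6.5 CPM. They rose by 1.16, 1.39 and 1.38 on the log2 scale. CKM, CEMP1, RSC1A1, C11orf71, RP11-46D6.1 and RP11-597A11.4 were the others among the 15 highest folds, at no more than 5.26 CPM in any of the 4 libraries.

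Among the 15 highest folds was ALPP, placental alkaline phosphatase (GRCh37 chromosome 2 from 233243434 to 233247599, plus strand). It stood at 2.1, 2.85, 6.92 and 6.32 CPM (log2 1.42 ± 0.22, adjusted p = 0.000174 by edgeR). Its neighbour ALPPL2, a near-identical germ cell form named after its values were seen, was at 17.4, 16.3, 37.9 and 33.3 CPM (log2 1.08 ± 0.079, adjusted p = 2.47e-08 by edgeR). Reads of such copies can be split wrongly between them, and the sum of both was 19.5, 19.2, 44.8 and 39.6 CPM. The pregnancy-specific glycoproteins, secreted immunoglobulin-like proteins of the placenta encoded side by side on chromosome 19, formed a list of their own. Of 10 members tested 9 were called higher and none lower, with a median log2 fold change of 0.66. The most abundant, PSG9, rose from 400 and 398 to 520 and 529 CPM (log2 0.39 ± 0.021, adjusted p = 2.91e-10 by edgeR), and PSG5 from 92.9 and 95.2 to 143 and 148 (log2 0.63 ± 0.049). PSG4 (194, 187, 228 and 238 CPM) and PSG1 (52.8, 50.4, 75.8 and 76.3 CPM) rose by 0.29 and 0.56. PSG6, PSG7, PSG11, PSG8 and PSG3 gained 0.68 to 1.10 from lower levels, and PSG2 (9.86, 8.71, 11.2 and 12.5 CPM) did not pass the test (adjusted p = 0.0912 by edgeR). With limma-trend on TPM 6 were called. The members are close copies of each other, so the split of reads between them is uncertain, unlike their sum, which was 781, 773, 1036 and 1058 CPM. All 10 had stood higher on day 1 than on day 3: PSG9 was at 620 and 640 CPM then and at 503 and 513 on day 2.

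The lysosome and autophagy list had the most members called higher of the lists examined. Of 40 members of the lysosome and autophagy list that were tested, 25 were higher and 1 lower (median log2 fold change 0.18). NEU1, the lysosomal sialidase, went from 98.4 and 99.5 to 156 and 149 CPM (log2 0.62 ± 0.037, adjusted p = 1.28e-09 by edgeR). The peptidase gene TPP1 was at 70.1, 69.4, 89.4 and 92.6 CPM, cathepsin D (CTSD) at 293, 297, 361 and 359, and GPNMB, a glycoprotein of lysosomes and melanosomes, at 688, 683, 839 and 861 CPM. These 3 rose by 0.38 ± 0.04, 0.28 ± 0.025 and 0.31 ± 0.018 on the log2 scale. Regulators of lysosomal nutrient sensing were among them. FLCN, which controls the Rag GTPases, was at 41.1, 39.7, 58.4 and 56.2 CPM (log2 0.51 ± 0.056, adjusted p = 4.94e-06 by edgeR). RRAGD, one of those GTPases and named after its values were seen, was at 6.06, 6.49, 9.9 and 10.8 CPM (log2 0.71 ± 0.14). The autophagy receptor gene SQSTM1 was the 1 member called lower, at 430, 423, 397 and 408 CPM (log2 -0.08 ± 0.023), and its call was lost with replicate 1 of either day left out and with limma-trend on TPM. The mRNAs of TFEB (6.22, 7.68, 6.47 and 7.22 CPM) and TFE3 (74.2, 66.7, 64.3 and 64.4 CPM) did not pass the test (adjusted p = 0.938 and 0.225 by edgeR). With any 1 of the 4 libraries left out 19 to 21 lysosome genes were called higher, with DESeq2 18 and with limma-trend on TPM 13.

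Promoters of this group are shown because they carry the CLEAR element, the palindrome TCACGTGA that TFEB and TFE3 bind. The motif was searched on both strands in RefSeq windows (GRCh38.p14) from 250 bases before to 50 after the start of a gene. This motif was chosen with the results known. It was in 6 of the 27 listed genes with a window (22.2%) and in 283 of 27305 windows of all genes (1.0%). Among the listed genes with a window that were higher on day 5, 4 of 16 held it. Their sequences from 100 bases before to 50 after the start follow, with the element in capitals.
CTSA promoter (chr20:45891235-45891384, plus strand): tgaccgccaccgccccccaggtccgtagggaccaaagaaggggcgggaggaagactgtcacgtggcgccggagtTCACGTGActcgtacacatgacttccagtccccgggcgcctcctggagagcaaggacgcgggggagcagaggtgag
CLN3 promoter (chr16:28492025-28492174, minus strand): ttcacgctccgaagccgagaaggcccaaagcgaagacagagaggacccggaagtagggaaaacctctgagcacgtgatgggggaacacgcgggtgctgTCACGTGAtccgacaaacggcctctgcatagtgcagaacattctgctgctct
LAMP1 promoter (chr13:113297139-113297288, plus strand): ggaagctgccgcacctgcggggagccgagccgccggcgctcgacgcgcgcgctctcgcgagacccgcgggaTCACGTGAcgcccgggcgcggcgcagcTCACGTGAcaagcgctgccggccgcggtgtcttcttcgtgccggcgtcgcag
ATP6V0D1 promoter (chr16:67481108-67481257, minus strand): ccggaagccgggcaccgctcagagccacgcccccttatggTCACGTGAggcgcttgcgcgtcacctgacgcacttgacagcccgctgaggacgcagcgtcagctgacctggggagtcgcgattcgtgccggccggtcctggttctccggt
CTSA encodes protective protein cathepsin A, which holds NEU1 active, CLN3 a lysosomal membrane protein, LAMP1 the main lysosomal membrane glycoprotein and ATP6V0D1 a subunit of the proton pump that acidifies lysosomes. CTSA was at 85.6, 85.6, 102 and 113 CPM and CLN3 at 49.4, 47, 62.3 and 60.2 CPM (log2 0.33 ± 0.046 and 0.35 ± 0.046). LAMP1, with 2 copies of the element, was at 361, 375, 411 and 423 CPM and ATP6V0D1 at 88.7, 88.9, 99.2 and 100 CPM (log2 0.18 ± 0.026 and 0.17 ± 0.038). GAA and MCOLN1 also hold 2 copies each and did not pass the test (log2 0.14 ± 0.062 and 0.15 ± 0.13), so not every gene with a match was called.

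**Figure D2:**
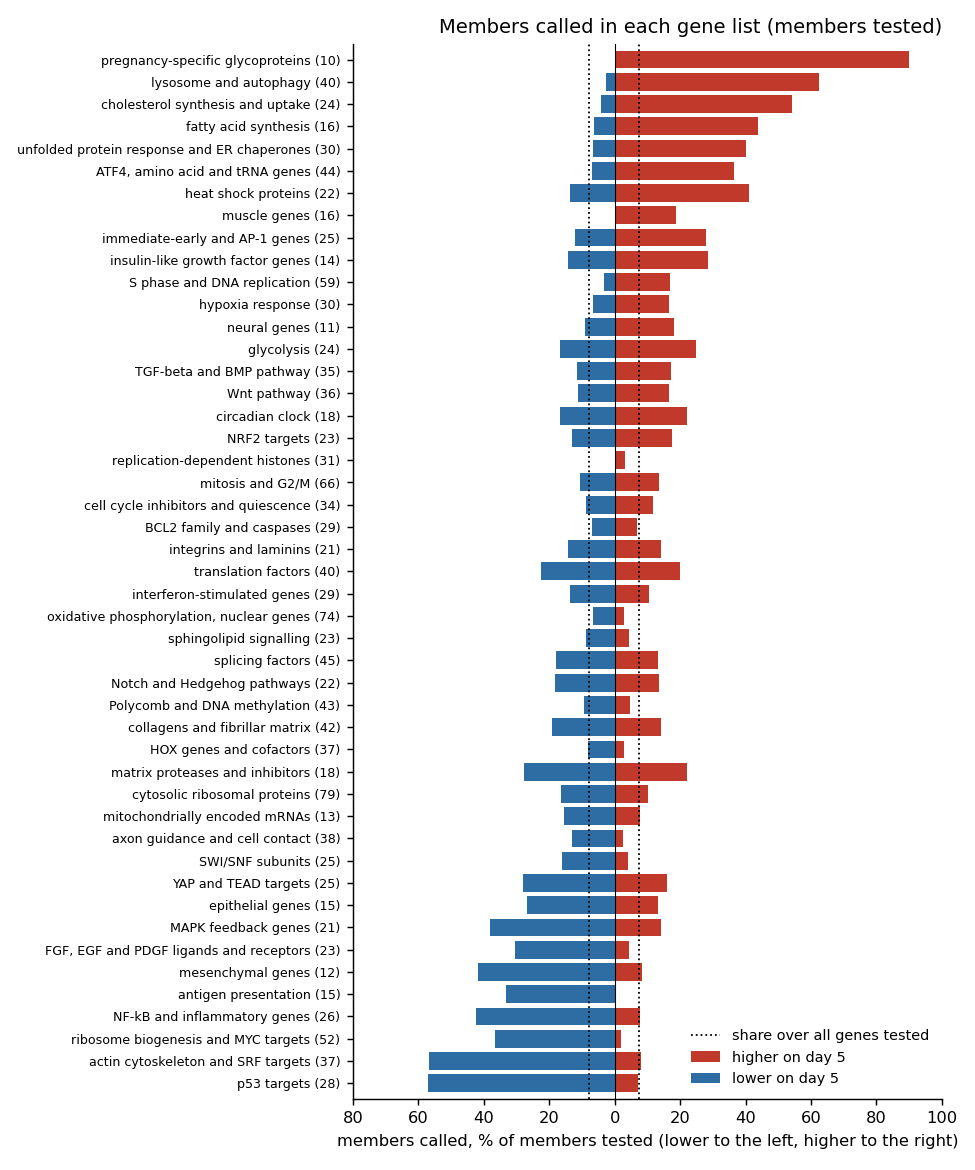
Share of the tested members of each gene list that was called higher (red, to the right) or lower (blue, to the left) in LacZ day 5 over day 3, for the lists with at least 10 tested members, whose number is in brackets. The dotted lines are the shares over all genes tested, 7.55% higher and 7.97% lower. Pregnancy-specific glycoproteins and lysosome genes stand at the top and p53 targets and actin genes at the bottom.

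Among the lipid synthesis genes that rose was SCD, the desaturase that makes oleate (GRCh37 chromosome 10 from 102106990 to 102124583, plus strand). It was at 1356, 1368.5, 2004 and 2017 CPM, far apart between days and close within each (log2 0.56 ± 0.013, adjusted p = 5.34e-15 by edgeR). Fatty acid synthase, FASN, went from 678 and 685 to 869 and 845 CPM (log2 0.33 ± 0.026) and ACLY, which supplies its acetyl-CoA, from 320 and 309 to 361 and 360 (log2 0.20 ± 0.025). FADS2 and ACACA rose by 0.25 and 0.13. In all, 7 of 16 fatty acid genes were higher, against 4 with limma-trend on TPM. The 1 lower gene was the elongase gene ELOVL1 (59.9, 61.1, 53.2 and 53.2 CPM), which lost its call with any 1 library left out.

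In the cholesterol synthesis and uptake list 13 of 24 genes were higher and 1 lower, with a median of 0.20. The enzymes FDPS (121, 125, 160 and 167 CPM), LSS (85.2, 85.3, 117 and 118 CPM) and DHCR7 (103, 101, 134 and 131 CPM), which act at the farnesyl, lanosterol and last steps of the pathway, rose by 0.41 ± 0.037, 0.46 ± 0.046 and 0.39 ± 0.038. HMGCS1, upstream of mevalonate, was at 88.4, 86.9, 108 and 108 CPM (log2 0.30 ± 0.042). SREBF2, the master regulator of the pathway, was at 225, 224, 260 and 254 CPM (log2 0.20 ± 0.025, adjusted p = 2.34e-05 by edgeR). The sterol regulatory element CACNCCAC, sought on both strands, was in 3 of 18 windows of the list (16.7%) and in 5.7% of all windows. In the small list for cholesterol export APOE (615, 632, 701 and 712 CPM) and LPCAT3 (70.1, 68.4, 80.3 and 80.2 CPM) rose by 0.18 and 0.21. The genes ABCG4, NR1H2 and NR1H3 did not pass the test (log2 0.83 ± 0.47, 0.08 ± 0.057 and 0.00 ± 0.23).

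Genes for protein folding in the endoplasmic reticulum were higher in 12 of 30 cases and lower in 2. CALR, the calcium-binding chaperone calreticulin, was at 849, 841, 1126.5 and 1126 CPM (log2 0.41 ± 0.015, adjusted p = 2.71e-12 by edgeR). HSP90B1 went from 868 and 854 to 1044 and 1034 CPM (log2 0.27 ± 0.018). The HSP70 chaperone HSPA5 went from 682 and 665 to 768 and 770 (log2 0.19 ± 0.019). PDIA6 and PDIA3, which form disulfide bonds, rose by 0.23 and 0.17. EDEM1, which sends misfolded glycoproteins to degradation, fell from 56.2 and 58.8 to 49.3 and 45.6 CPM (log2 -0.27 ± 0.052), and SEC61A1 fell by 0.08. XBP1, the transcription factor gene, was at 115, 117, 118 and 111 CPM and did not pass the test (adjusted p = 0.857 by edgeR). The chaperone promoters are shown for the ER stress element, a CCAAT box spaced from a CCACG core that NF-Y and ATF6 bind, sought on both strands after the results were known. It was in 6 of 28 windows of the list (21.4%), among them 3 of 11 of the higher genes, and in 22 of 27305 windows of all genes (0.1%). In the sequences the element is in capitals, and it reads on the opposite strand in HSP90B1. A further copy in HSP90B1, on the strand of the gene at -194 from the start, lies outside the printed sequence.
HSPA5 promoter (chr9:125241294-125241443, minus strand): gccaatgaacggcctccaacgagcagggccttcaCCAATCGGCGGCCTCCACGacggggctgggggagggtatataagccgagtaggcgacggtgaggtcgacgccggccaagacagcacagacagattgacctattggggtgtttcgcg
HSP90B1 promoter (chr12:103930310-103930459, plus strand): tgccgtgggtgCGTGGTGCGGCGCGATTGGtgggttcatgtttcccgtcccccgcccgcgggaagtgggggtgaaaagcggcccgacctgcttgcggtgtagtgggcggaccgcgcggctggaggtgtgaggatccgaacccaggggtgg
The shorter ATF6 core CCACG, part of that element, was in 67.9% of the list's windows and in 37.9% of all windows.

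In the list of heat shock proteins 9 of 22 genes were higher and 3 lower, against 6 higher with limma-trend on TPM. HSPB1, the small heat shock protein HSP27, was at 568, 573, 740 and 739 CPM (log2 0.38 ± 0.02, adjusted p = 3.37e-10 by edgeR). DNAJB1 was at 91.8, 93.1, 125 and 130 CPM (log2 0.46 ± 0.052) and HSPA1B at 68.8, 66.2, 95.2 and 94.5 CPM (log2 0.49 ± 0.052, a gene with a near-identical copy). The constitutive HSPA8 fell from 1824 and 1802 to 1700 and 1702 CPM (log2 -0.09 ± 0.012) and HSPA4L from 70 and 72.2 to 52 and 54.2 (log2 -0.42 ± 0.054). Matches to the heat shock element, which HSF1 binds, were in 4 of 20 windows and 0.5% of all windows, in 1 of 8 higher and 2 of 3 lower members. DNAJA1 lost its call with any 1 library left out.

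Genes of ATF4, amino acid synthesis and tRNA charging were higher in 16 of 44 cases and lower in 3, against 9 higher with limma-trend on TPM. NUPR1, a small stress-induced nuclear protein, was at 55, 52.9, 100 and 96.5 CPM (log2 0.87 ± 0.051, adjusted p = 1.13e-09 by edgeR). The tRNA synthetase genes AARS and MARS were at 83.5, 82.7, 120 and 127 CPM and at 160, 160, 189 and 195 CPM (log2 0.56 ± 0.047 and 0.26 ± 0.03). CBS and PYCR1, enzymes of cysteine and proline synthesis, rose by 0.36 and 0.39. ASNS, asparagine synthetase and one of the classic ATF4 targets, went the other way, from 73 and 70.6 to 57.9 and 56.7 CPM (log2 -0.32 ± 0.046, adjusted p = 8.54e-05 by edgeR). So did ATF3 (log2 -0.20 ± 0.044) and DARS (log2 -0.19 ± 0.052). ATF4 itself was at 187, 185, 212 and 215 CPM (log2 0.20 ± 0.031). The stress genes DDIT3 and TRIB3, at 3.15 to 4.72 CPM, did not pass the test (log2 0.43 ± 0.19 and 0.50 ± 0.19). The ATF4 composite element TGATGNAA was in 5 of 24 windows of the list (20.8%, against 3.7% of all windows), in none of the 6 higher members with a window and in both of the lower ones.

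**Figure D3:**
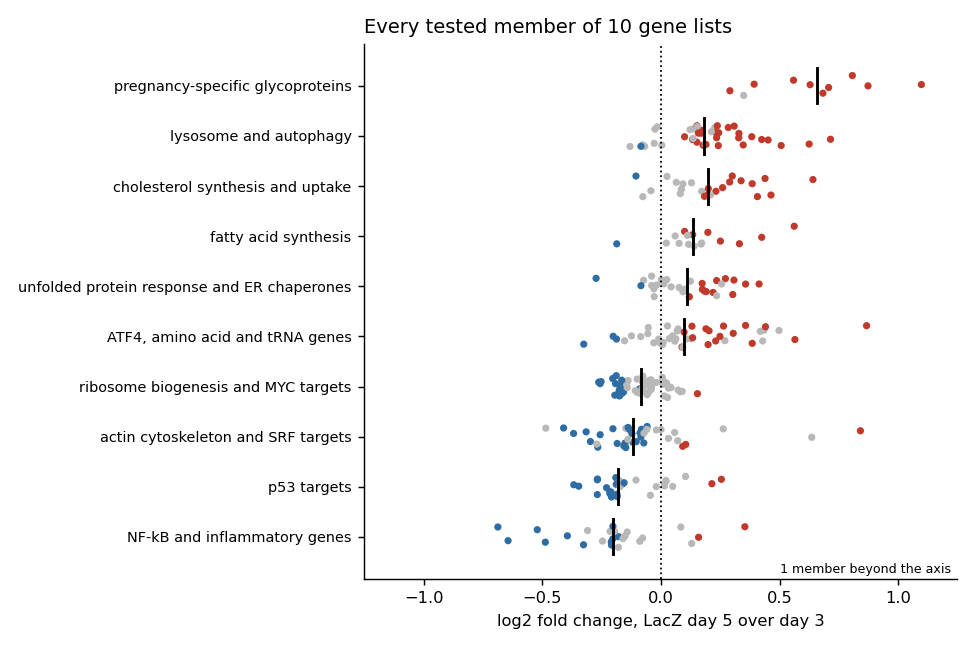
Log2 fold change of LacZ day 5 over day 3 (x axis) for every tested member of 10 gene lists (rows), with called members in red (higher) or blue (lower), uncalled members in grey, black bars at the list medians and a dotted line at the median of all genes tested. The 6 upper lists have medians of 0.10 to 0.66 and the 4 lower ones of -0.09 to -0.20.

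Among the genes that fell, CREM was one of the 15 largest. It encodes activators and repressors that answer to cyclic AMP (ENSG00000095794.15, GRCh37 chromosome 10 from 35415719 to 35501886, plus strand). It went from 74.1 and 75.7 to 33.6 and 35 CPM (log2 -1.13 ± 0.058, adjusted p = 2.35e-10 by edgeR). HPD, an enzyme of tyrosine breakdown, fell from 138 and 141 to 81.6 and 81.2 CPM (log2 -0.78 ± 0.035, adjusted p = 4.09e-11 by edgeR). The ciliogenesis genes CDC20B (13.1, 13.7, 4.76 and 5.26 CPM) and FOXJ1 (15.1, 15.5, 6.62 and 5.7 CPM) were lower by 1.42 ± 0.15 and 1.30 ± 0.12. The imprinted noncoding RNA H19 was nearly lost, at 3.15, 3.64, 0.372 and 0.534 CPM (log2 -2.90 ± 0.40, adjusted p = 5.26e-05 by edgeR). Its neighbour IGF2 was at 0.162 to 0.521 CPM in them. CHI3L1, RSPH4A, SCHIP1, WDR63, ANO9, ITGA9, NAALADL2, AC008738.1, CTC-349C3.1 and RP11-73M18.10 were among the 15 largest falls too, at 1.04 to 10.8 CPM. The largest fitted fall, in a second HOXC4 record (6.3, 5.78, 0.149 and 0.178 CPM), is uncertain. The main HOXC4 record stood at 4.6, 6.41, 9 and 9.98 CPM, and the sum of both was 10.9, 12.2, 9.15 and 10.2 CPM. SLX1B (0.404, 4.91, 15.5 and 10.2 CPM) is uncertain too, since SLX1A is a near-identical copy, and both together stood at 27.5, 33.5, 44.1 and 37 CPM.

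Of 37 tested genes of the actin cytoskeleton list 21 were lower on day 5 and 3 higher, with a median of -0.12. With limma-trend on TPM 13 were lower. The summed level of the listed genes was 25230 and 25160 TPM on day 3 and 22880 and 22780 TPM on day 5. ACTB, cytoplasmic beta-actin, was at 5137, 5201, 4516 and 4583 CPM (log2 -0.18 ± 0.011, adjusted p = 1.4e-09 by edgeR), and ACTG1 at 3567, 3518, 3173 and 3187 CPM (log2 -0.16 ± 0.012). The tropomyosin gene TPM1 went from 1991 and 1995 to 1540.5 and 1549 CPM (log2 -0.37 ± 0.013, adjusted p = 2.71e-12 by edgeR) and TPM4 from 789 and 770 to 633 and 635 (log2 -0.30 ± 0.017). Vinculin, VCL, which ties actin to focal adhesions, was at 1823, 1846, 1545.5 and 1527 CPM (log2 -0.26 ± 0.012). The genes called higher were FHL1 (3.64, 3.48, 5.95 and 6.86 CPM), PFN1 and MYH10, the last 2 by 0.09 and 0.10. SRF was at 135, 127, 118 and 119 CPM (log2 -0.14 ± 0.047, adjusted p = 0.0536 by edgeR). One form of the CArG box that SRF binds was in 2 of 30 windows (6.7%, against 0.1% of all windows) and in none of the 17 lower genes with a window. The keratins KRT8 and KRT18 fell by 0.21 ± 0.015 and 0.27 ± 0.014, and VIM by 0.13 ± 0.02.

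In the NF-kB and inflammatory list 11 of 26 genes were lower and 2 higher, with a median of -0.20. With limma-trend on TPM 4 were lower. The precursor of the NF-kB subunit p52, NFKB2, was at 189, 181, 116 and 114 CPM (log2 -0.69 ± 0.04, adjusted p = 1.03e-09 by edgeR). Its partner RELB was at 50.5, 47.1, 38.2 and 35.9 CPM (log2 -0.39 ± 0.067) and the inhibitor NFKBIA at 112, 112, 88.8 and 89.6 CPM (log2 -0.33 ± 0.043). CFLAR, which blocks caspase-8, fell from 101 and 103 to 69 and 77.4 CPM (log2 -0.49 ± 0.062). BIRC2 and CSF1 fell by 0.21 each. The cytokine gene IL6 and the subunit gene REL, named after their values were seen, fell by 0.64 ± 0.13 and 0.52 ± 0.11. CD44 (20.7, 20.5, 27.8 and 24.6 CPM) and LIF (86.4, 83.9, 96.6 and 93.4 CPM) were higher by 0.35 and 0.16. Neither call held with replicate 1 of day 5 left out. Of the kappa B motif GGGANTTCC, 4 of 20 windows held a match (1.9% of all windows) and 1 of 9 lower genes did, CFLAR.

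Of 28 p53 targets tested 16 were lower and 2 higher, with a median of -0.18. DDB2, a DNA damage sensor, went from 57.1 and 56.9 to 44.7 and 45.1 CPM (log2 -0.35 ± 0.06). C12orf5, which encodes the metabolic regulator TIGAR, went from 44 and 41.9 to 33 and 33.6 (log2 -0.37 ± 0.059). MDM2, the p53 ubiquitin ligase, went from 207 and 206 to 177 and 179 (log2 -0.21 ± 0.038, adjusted p = 0.000649 by edgeR). The death receptor gene TNFRSF10B fell by 0.27 ± 0.029 and BLOC1S2 and BTG2 by 0.22 and 0.21. PHLDA3 rose from 204 and 200 to 238 and 231 CPM (log2 0.21 ± 0.031) and PLK3 by 0.26, a call that any 1 library left out removed. CDKN1A, the cell cycle inhibitor and best known target, was at 156, 155, 157 and 158 CPM and did not pass the test (adjusted p = 0.828 by edgeR). The count of lower p53 targets was 7 without replicate 2 of day 3, 9 without replicate 1 of day 5, and 11 with DESeq2 and 7 with limma-trend on TPM.

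In the list of ribosome biogenesis genes and MYC targets 19 of 52 genes were lower and 1 higher, with a median of -0.09. The higher gene was MYC itself (log2 0.15, adjusted p = 0.0121 by edgeR). With limma-trend on TPM 10 were lower and 0 higher, and the higher count was 0 to 1 with any 1 library left out. Among the called were DDX21 (476, 478, 417 and 416 CPM), NOLC1 (407, 421, 357 and 362 CPM) and GNL3 (126, 126, 107 and 105 CPM), nucleolar proteins that fell by 0.19 ± 0.022, 0.20 ± 0.024 and 0.26 ± 0.035. Of the cytosolic ribosomal proteins 8 of 79 were higher and 13 lower around a median of -0.01, against 7.55% higher and 7.97% lower over all genes tested. MAPK feedback genes were lower in 8 of 21 cases and higher in 3. DUSP1, a phosphatase that shuts off MAP kinases, was at 118, 121, 91 and 92.1 CPM (log2 -0.39 ± 0.037, adjusted p = 8.87e-07 by edgeR). CCND1 fell by 0.26 ± 0.025. SPRY4 (48.3, 48.9, 59.4 and 61.2 CPM) and IER3 rose by 0.31 and 0.27. The count of lower MAPK feedback genes was 4 without replicate 1 and 5 without replicate 2 of day 3, and that of lower ribosomal proteins was 2 to 7 with any 1 library left out. Of 23 growth factor and receptor genes 7 were lower and 1 higher. With limma-trend on TPM 2 of each of the MAPK feedback and growth factor lists were lower. FGF2 went from 288 and 283 to 232 and 235 CPM (log2 -0.29 ± 0.024). VEGFB rose from 17.3 and 18.9 to 26.3 and 30.2 (log2 0.63 ± 0.084).

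The cell cycle lists held genes called in both directions. The counts given here stand beside shares of 7.55% higher and 7.97% lower over all genes tested, and whether a list differed from these was not tested. MKI67, the proliferation marker, was at 348, 354, 352 and 354 CPM (log2 0.01 ± 0.034, adjusted p = 0.898 by edgeR). In the list for mitosis and G2/M 9 of 66 genes were higher and 7 lower. Among them were FOXM1 (94.4, 96, 109 and 119 CPM), higher by 0.26 ± 0.044, and ECT2 (284, 269, 206 and 212 CPM), lower by 0.40 ± 0.03. For S phase the count was 10 of 59 higher, with MCM2, MCM3 and MCM7 up by 0.16 to 0.21, and 2 lower, RRM2 and PCNA, by 0.19 and 0.12. Without replicate 1 of day 5 the S phase count was 6 higher and that of mitosis was 4, as it was without replicate 1 of day 3, and the lower count of mitosis was 4 without replicate 2 of either day. CDK4 rose from 168 and 169 to 218 and 213 CPM (log2 0.36 ± 0.035). TOB1, an antiproliferative gene, fell from 118 and 118 to 87 and 90.8 (log2 -0.41 ± 0.041). CDK4 and TOB1 are in the list of cell cycle inhibitors and quiescence, where 4 of 34 genes were higher and 3 lower. The others called higher there were CCNG2, PIK3IP1 and KLF6, by 0.402, 0.482 and 0.145. The higher count was 1 to 3 with any 1 library left out. Of 74 nuclear genes of oxidative phosphorylation 2 were higher and 5 lower, both below the shares over all genes tested. These counts were 0 and 1 with DESeq2 and ran from 0 to 3 and from 1 to 4 with any 1 library left out. Of 13 mitochondrially encoded mRNAs MT-ND6 was higher (log2 0.13 ± 0.029) and MT-ND1 and MT-ND4L lower (log2 -0.10 ± 0.02 and -0.07 ± 0.02), the last a call that any 1 library left out removed. In glycolysis 6 of 24 genes were higher and 4 lower. PKM was at 2793, 2771, 3223.5 and 3219 CPM (log2 0.21 ± 0.0099) and PFKP at 624, 633, 557 and 551 CPM (log2 -0.18 ± 0.017).

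The levels of days 1 and 2 place day 3 within the course. GCHFR was at 82.7 and 86.9 CPM on day 1 and 47.7 and 51.1 on day 2, so its day 3 libraries were the lowest and its day 5 libraries the highest of the course. TSPAN10 had been at 91.2 and 88.2 CPM on day 1, SCD at 2136 and 2113, NEU1 at 158 and 164 and NUPR1 at 105 and 110, at or above their day 5 levels. CREM had been at 32.1 and 36.5 CPM and NFKB2 at 99 and 97.1 on day 1, so for them day 3 was the highest of the 4 days and the day 5 libraries were closer to day 1 than to day 3. FOXJ1 (20.2 and 20.8, then 20.8 and 19.4 CPM) and CDC20B (27.5 and 22.9, then 23.1 and 25.2 CPM) had been higher on days 1 and 2 than on either later day. These levels share the day 3 libraries with the step above and were not tested against it.

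**Figure D4:**
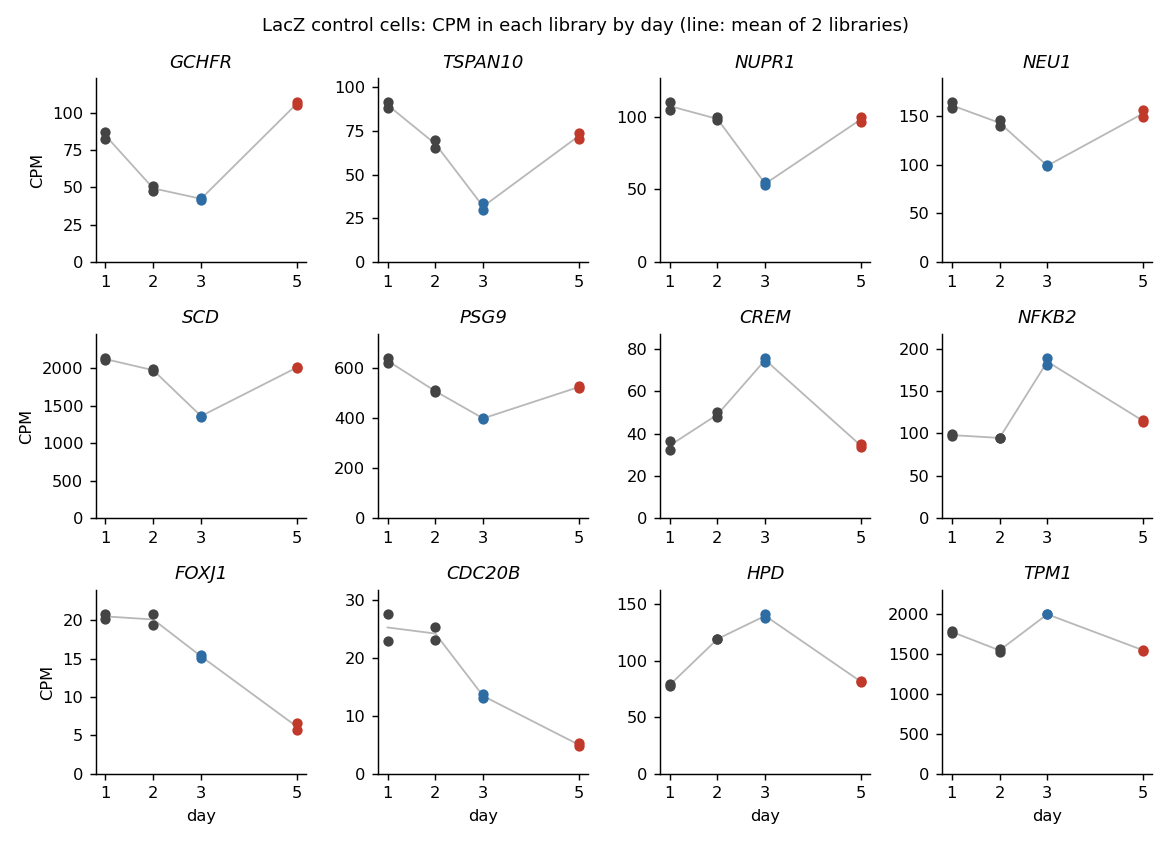
CPM (y axis, from 0) of 12 named genes in each LacZ library on days 1, 2, 3 and 5 (x axis), with the day 3 libraries in blue, day 5 in red and the line through the mean of the 2 libraries. SCD went from 1356 and 1368.5 CPM on day 3 to 2004 and 2017 on day 5, and 6 of the genes are at their lowest on day 3, while CREM, NFKB2, HPD and TPM1 are at their highest there.

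The same step in BRD9 KO cells, which shares no library with the LacZ step, called 3140 genes (20.9%), of which 1568 were higher (10.4%) and 1572 lower (10.5%). Both steps compare the same days, and their spread was estimated together over all 16 libraries, so their overlap is not an independent repeat. Of the genes higher in LacZ cells 744 were called higher in BRD9 KO cells, 65.61% of the LacZ list and 47.45% of the BRD9 KO list, and 828 were lower in both, 69.12% and 52.67%. In opposite directions 5 and 8 genes were called. For the lead genes the log2 steps are given side by side: GCHFR changed by 1.32 and 1.47, TSPAN10 by 1.18 and 1.16, SCD by 0.56 and 0.51, CREM by -1.13 and -0.86 and H19 by -2.90 and -2.68 in LacZ and BRD9 KO cells. Of the lists, lysosome genes had 27 members higher and 0 lower in BRD9 KO cells, cholesterol genes 13 and 1, actin genes 7 and 16, NF-kB genes 1 and 13 and p53 targets 2 and 14. Other lists had unlike counts: growth factor and receptor genes had 7 higher and 7 lower (1 and 7 in LacZ cells), pregnancy-specific glycoproteins 4 and 0 (9 and 0) and mitosis and G2/M genes 23 and 6 (9 and 7). Differences between these counts were not tested. Tested gene by gene, the step in BRD9 KO cells was called higher in 0.459% and lower in 0.492% of all genes tested. Such calls went to 2 and 1 growth factor and receptor genes and to 0 and 1 pregnancy-specific glycoproteins. Mitosis and G2/M genes had 0 and 0, and actin genes had 5 and 0. Unlike counts of a list are therefore not called differences of its genes.

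The difference between the steps was tested by itself and called 143 genes (0.952%), 69 with a higher step in BRD9 KO cells (0.459%) and 74 with a lower one (0.492%). With replicate 1 of LacZ day 3 left out 80 were called, with replicate 2 of that day 82, with replicate 1 of LacZ day 5 85 and with replicate 2 of BRD9 KO day 3 90. PSG9 rose in LacZ cells and stood at 187, 188, 194 and 192 CPM in BRD9 KO cells (difference -0.35 ± 0.03 on the log2 scale, adjusted p = 9.38e-06 by edgeR). The step of NUPR1 was smaller there by 0.42 ± 0.08 (adjusted p = 0.0166 by edgeR). The step of the lens and muscle chaperone CRYAB was larger in BRD9 KO cells, 0.63 against 0.27 (adjusted p = 8.91e-06 for the difference by edgeR). KRT8 fell in LacZ cells and was at 5441, 5449.5, 5341 and 5272 CPM in BRD9 KO cells, a difference of 0.18 ± 0.02 (adjusted p = 0.00015 by edgeR). The growth factor gene TGFB1 rose in both, by 0.34 and 0.92, with a called difference (adjusted p = 0.00807 by edgeR). Its LacZ call was lost without replicate 2 of day 3 or replicate 1 of day 5.

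**Figure D5:**
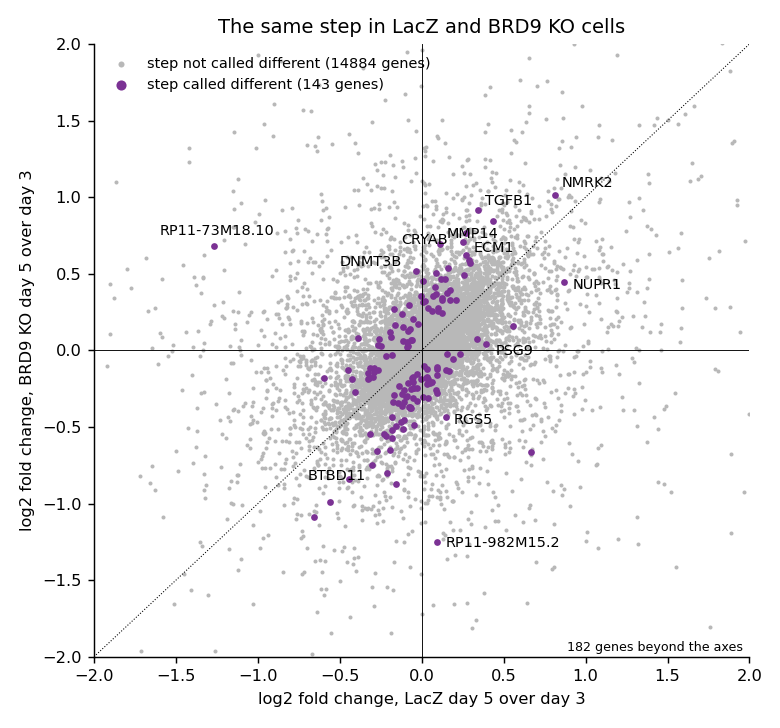
Log2 fold change of day 5 over day 3 in BRD9 KO cells (y axis) against that in LacZ cells (x axis), one point per gene tested, with the 143 genes whose steps were called different in purple and a dotted line where both steps are equal. NUPR1 and PSG9 lie below the line and TGFB1, MMP14 and CRYAB above it, and 182 genes lie beyond the axes.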

How the data were processed

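RNA was extracted with TRIzol, and libraries were made with a kit that does not keep strand, so overlapping antisense genes cannot be told apart. The authors aligned reads to hg19 with STAR and estimated expected counts and TPM per gene with RSEM (versions not given in the sources used here), and both columns were deposited for 57820 genes in each library. Expected counts were rounded and tested with edgeR 4.0.16 (R 4.3.3): filterByExpr (minimum count 10, minimum total 15), TMM scaling, a mean for each of 8 groups over all 16 libraries, quasi-likelihood tests with 8 residual degrees of freedom and Benjamini-Hochberg adjustment over 15027 genes. The threshold for a call was an adjusted p of 0.05. CPM is the TMM-scaled count relative to the library total, a level that does not compare genes of unlike length, and log2 fold changes are day 5 over day 3 with the standard error. The step in LacZ cells, that in BRD9 KO cells and their difference were tested, on scripts first tested on simulated data. No 2 libraries were identical.

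Named genes were SMARCB1, BRD9, SMARCA4 and GLTSCR1, the 15 highest and 15 lowest folds among called genes of at least 1 mean log2 CPM whose days did not overlap, the 6 that gained and the 6 that lost most TPM, up to 5 called members per direction of each list (the most abundant 2 where fewer than 3 were called), the 6 highest and 6 lowest differences between the steps, and all tested members of lists of 15 or fewer. The comparison, the 52 gene lists (1876 genes) and the tests were chosen with earlier results of these data known. NMRK2, ALPPL2, AKAP12, SIK1, NR4A1, NR4A2, NR4A3, FOS, CCNO, SPAG6, MCIDAS, RRAGD, CTSA, CLN3, LAMP1, ATP6V0D1, GAA, MCOLN1, TFEB, TFE3, ATF4, DDIT3, TRIB3, XBP1, SRF, IL6, REL, CDKN1A, MKI67 and IGF2, and the CLEAR, ER stress, ATF6, heat shock, kappa B and CArG motifs, were chosen after their values were seen. DESeq2 1.42.0 and limma 3.58.1 on log2(TPM + 1) were among the alternatives. Some members of the lists are not reported here by name.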

Additional observations from a re-analysis of the deposited data

Results flagged for a closer look

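The step from day 3 to day 5 differed between BRD9 KO and LacZ cells in 143 genes by edgeR's test of the difference. The 6 highest and 6 lowest differences, each as the log2 step in BRD9 KO minus that in LacZ cells with its standard error, are given here. RP11-73M18.10 differed by 1.95 ± 0.45, with 3.23, 3.88, 1.04 and 1.96 CPM in LacZ and 1.81, 2.53, 3.09 and 3.71 CPM in BRD9 KO cells. MMP14, a membrane-bound matrix protease, differed by 0.58 ± 0.14, with 17.9, 16, 19.5 and 16.8 CPM in LacZ and 20.8, 21.8, 35.1 and 33.8 CPM in BRD9 KO cells. TGFB1 differed by 0.57 ± 0.10, with 28.3, 26.5, 35.3 and 33.9 CPM in LacZ and 27.5, 29.6, 54.9 and 52.7 CPM in BRD9 KO cells. The DNA methyltransferase gene DNMT3B differed by 0.55 ± 0.12, the matrix protein gene ECM1 by 0.49 ± 0.08 and the growth factor gene PDGFB by 0.47 ± 0.09. On the other side RP11-982M15.2 differed by -1.34 ± 0.29, RP11-1212A22.4 by -1.33 ± 0.31 and RP11-449D8.1 by -0.71 ± 0.15. BTBD11 differed by -0.59 ± 0.13, RGS5, a regulator of G protein signalling, by -0.58 ± 0.08 and NRP1, a receptor for semaphorins and VEGF, by -0.45 ± 0.09. The adjusted p-values of these 12 differences from edgeR ran from 0.000587 in RGS5 to 0.0489 in MMP14.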

How the results depend on the processing

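Against the 2332 genes called in LacZ cells, DESeq2 called 1410 (646 higher, 764 lower), limma-trend on TPM 826 (439 and 387) and a further requirement of at least a 2-fold change 64 (35 and 29). Leaving out 1 LacZ library gave 1308 to 1620 (623 to 798 higher, 685 to 822 lower). In BRD9 KO cells (3140) the counts were 1896, 1241 and 110. For the difference (143) limma-trend called 21, no filter on low counts 317 and the 2-fold requirement 5, and leaving out 1 library gave 80 to 104. The cause of these changes was not tested. The labels do not say that replicate numbers pair the samples, and with 2 numbers per day the data cannot settle it. Deviations of same-numbered libraries of days 3 and 5 correlated at -0.0283 in LacZ and 0.0163 in BRD9 KO cells over 15027 genes, and at 0.0327 and 0.2422 over 6298 abundant genes. With the replicate number as a block 2310 genes were called in LacZ cells, 3090 in BRD9 KO cells and 145 in the difference. Of 180 named genes with a test 152 were called, 57 of them lost the call under at least 1 alternative and 0 reversed. For 22 named genes, among them ALPP, H19, CLDN4 and CCL25, DESeq2 gave no adjusted p, which was not counted as a lost call. Beside those said elsewhere, leaving out 1 LacZ library removed the calls of BTG2, DARS, MYH10, PCNA, PFN1, PSG6, PSG11, SEC61A1, CEBPA, CKM, CEMP1, RSC1A1, C11orf71, SLX1B, RP11-46D6.1, RP11-597A11.4, CHI3L1, RSPH4A, SCHIP1, WDR63, ANO9, ITGA9, AC008738.1, CTC-349C3.1 and RP11-73M18.10. RGS5, NRP1 and ECM1, named for the difference between the steps, lost their LacZ calls in this way too, RGS5 with any 1 library left out. With 2 libraries per day, leaving out 1 left a lone library that was assumed to vary like the other groups.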

Other observations

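Some further genes that fell were named after their values were seen, and no list of them was tested. CCNO, which drives centriole amplification, stood at 13.5, 13.7, 9.15 and 7.75 CPM (log2 -0.68), and SPAG6, a part of the axoneme, fell by 0.43 on the log2 scale (adjusted p = 0.000836 by edgeR). MCIDAS, which starts the multiciliated cell program, did not pass the test (log2 -0.42, adjusted p = 0.0718 by edgeR).

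AKAP12, an anchor of protein kinase A, stood at 961, 987, 685 and 687 CPM (log2 -0.51, adjusted p = 3.19e-12 by edgeR), and the kinase gene SIK1 at 85, 80.5, 60.4 and 61.3 CPM (log2 -0.44). NR4A3, an orphan nuclear receptor, stood at 2.42, 2.22, 0.744 and 0.802 CPM (log2 -1.58, adjusted p = 0.00656 by edgeR) and lost its call without replicate 1 of day 5. Its relatives NR4A1 (log2 0.01) and NR4A2 (log2 -1.18) did not pass the test (adjusted p = 0.981 and 0.138 by edgeR), nor did FOS (log2 -0.15, adjusted p = 0.153 by edgeR). The NR4A genes and FOS are in the immediate-early and AP-1 list. Of its 25 tested members 7 were called higher and 3 lower, against 7.55% and 7.97% of all genes tested. JUN, JUND and IER2 were among the higher, by 0.695, 0.383 and 0.280. With limma-trend on TPM 4 were higher and 1 lower. PER1 rose by 0.33 on the log2 scale (adjusted p = 0.00178 by edgeR).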
